A study of Rattus norvegicus and Mus musculus with 251 samples.

Results

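The 7 GABA-A receptor subunit genes described here were Gabra2, Gabra3, Gabra4, Gabra5, Gabrb1, Gabrb2 and Gabrd, chosen by symbol from a mouse table of 46078 gene identifiers. Each symbol matched 1 identifier, and all 7 genes passed the filter on low counts in both brain regions. RNA was measured by paired-end sequencing of total RNA from 0.5 mm tissue punches taken from mice labelled C57BL6J, an inbred strain. There were 30 libraries of prefrontal cortex (PFC) and 32 of nucleus accumbens (NAc). Mice of both sexes drank saline (6 PFC and 7 NAc libraries) or morphine. The morphine groups were labelled as chronic morphine (8 and 8 libraries), morphine followed by 24 h (9 and 9) and morphine followed by 2 weeks (7 and 8). The doses, the length of drinking and the ages of the mice are not given in the sources used here. Each group held 3 or 4 female and 3 to 5 male libraries. The labels identify libraries within a region by number only, so the p-values below measure the spread between these libraries. Rat libraries of the same series were not used.

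GABA-A receptors are chloride channels built from 5 subunits that open when they bind GABA, the main inhibitory transmitter of the brain. Most hold alpha and beta subunits with either a gamma subunit, which places them largely at synapses, or the delta subunit, which is found outside synapses and gives a steady, neurosteroid-sensitive current. GABA binds between alpha and beta subunits, while classical benzodiazepines bind between an alpha and a gamma subunit. In the nucleus accumbens the main neurons are themselves GABAergic projection neurons, and in the cortex GABA comes from interneurons that act on excitatory cells.

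The members differ in a coding position that sets their drug response, and the sequences are shown because this position divides the alpha members and the beta members. Alpha subunits with a histidine there bind diazepam, and those with an arginine do not. Each line gives 39 bases, 5′ to 3′, of a protein-coding transcript of the gene in GENCODE M21 (GRCm38), with the codon for that residue in capitals.
Gabra2: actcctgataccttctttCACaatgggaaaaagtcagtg
Gabra3: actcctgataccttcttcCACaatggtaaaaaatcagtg
Gabra5: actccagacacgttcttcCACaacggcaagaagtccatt
Gabra4: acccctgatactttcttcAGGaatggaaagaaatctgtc
The codon was CAC, histidine, in Gabra2, Gabra3 and Gabra5 and AGG, arginine, in Gabra4. Over the 39 bases, Gabra2 and Gabra3 differed at 3 positions, Gabra2 and Gabra5 at 10, and Gabra2 and Gabra4 at 11. For the beta members, the capitals mark the codon of the residue in the membrane that sets the response to loreclezole and etomidate, 2 modulators that act weakly where it is a serine.
Gabrb1: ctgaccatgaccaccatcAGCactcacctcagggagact
Gabrb2: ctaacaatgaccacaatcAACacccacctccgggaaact
Gabrb1 carried AGC, serine, and Gabrb2 carried AAC, asparagine, and these windows differed at 7 of 39 bases. No such window was taken for Gabrd, whose delta subunit takes the place of gamma in the receptor.

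Several members lie in clusters of GABA-A subunit genes (GRCm38). On chromosome 5 are Gabra2 (ENSMUSG00000000560, 70957597 to 71095849, minus strand), Gabra4 (ENSMUSG00000029211, 71569749 to 71658308, minus strand) and Gabrb1 (ENSMUSG00000029212, 71658113 to 72149037, plus strand). The ends of Gabra4 and Gabrb1 overlap on opposite strands. Gabra3 (ENSMUSG00000031343) lies on chromosome X, 72432681 to 72656848, minus strand, and overlaps 4 annotated genes, 2 of them on the other strand. Gabra5 (ENSMUSG00000055078) lies on chromosome 7, 57407672 to 57510059, minus strand, and overlaps a gene of the other strand. Gabrb2 (ENSMUSG00000007653) lies on chromosome 11, 42419757 to 42629028, plus strand, and Gabrd (ENSMUSG00000029054) on chromosome 4, 155384980 to 155398112, minus strand. Whether the counting used strand is not given in the sources used here, so reads in the overlaps of Gabra3, Gabra4, Gabra5 and Gabrb1 cannot be assigned to a strand.

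Total counts per library ranged from 5182601 to 41532464 in PFC and from 22387525 to 43963295 in NAc. The labels give the cell type as neuron, but oligodendrocyte markers (7 of 7 detected in both regions) summed to 2940 to 8930 CPM (counts scaled to the library's total) in PFC and 4180 to 14600 in NAc, so the values are those of mixed tissue. In such bulk samples, fewer cells of a type and less RNA per cell cannot be told apart. Excitatory cortical markers summed to 1850 to 4180 CPM in PFC and at most 784 in NAc, a value of the 24 h group. A striatal score, the mean log2 CPM of 9 markers of striatal projection neurons, ranged from 4.90 to 9.33 in NAc. It was 4.90 and 6.16 in NAc saline libraries 6 and 2, 5.14 in chronic morphine library 25 and 6.30 in 24 h library 23, and at least 7.14 in the other NAc libraries. In PFC, library 10 (2 weeks) had the fewest counts and a striatal score of -0.03, and libraries 10 and 20 (24 h) had the lowest Gabrb2 values. Unaligned reads made up 21.1% in PFC library 10, against a median of 0.566% over libraries. Several fits are given with and without these 6 libraries, while the correlations below were taken only with them.

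Per kilobase of exon, the members spanned a range of levels in both regions, with Gabra3, the alpha subunit typical of monoaminergic and cortical cells, at the top. In PFC its median over libraries was 32.7 CPM per kilobase, followed by Gabrd at 28.1, Gabra5 at 19.6, Gabrb2 at 18.9, Gabra4 at 15.6, Gabrb1 at 7.08 and Gabra2 at 5.50. In NAc the medians were 26.8 for Gabra3, 25.8 for Gabrd, 20.6 for Gabrb2, 19.3 for Gabra4, 18 for Gabra5 and 11.7 for each of Gabrb1 and Gabra2. Neighbours in both orders overlapped in their library ranges, with 1 exception: Gabra4 (at least 11) and Gabrb1 (4.01 to 10.3) did not overlap in PFC. With the length of the longest transcript in place of all exons, Gabrb2 moved up to 30.1 in PFC and 32.9 in NAc, where it became the highest member, and Gabrb1 became the lowest member in both regions at 7.13 and 11.8.

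**Figure D1:**
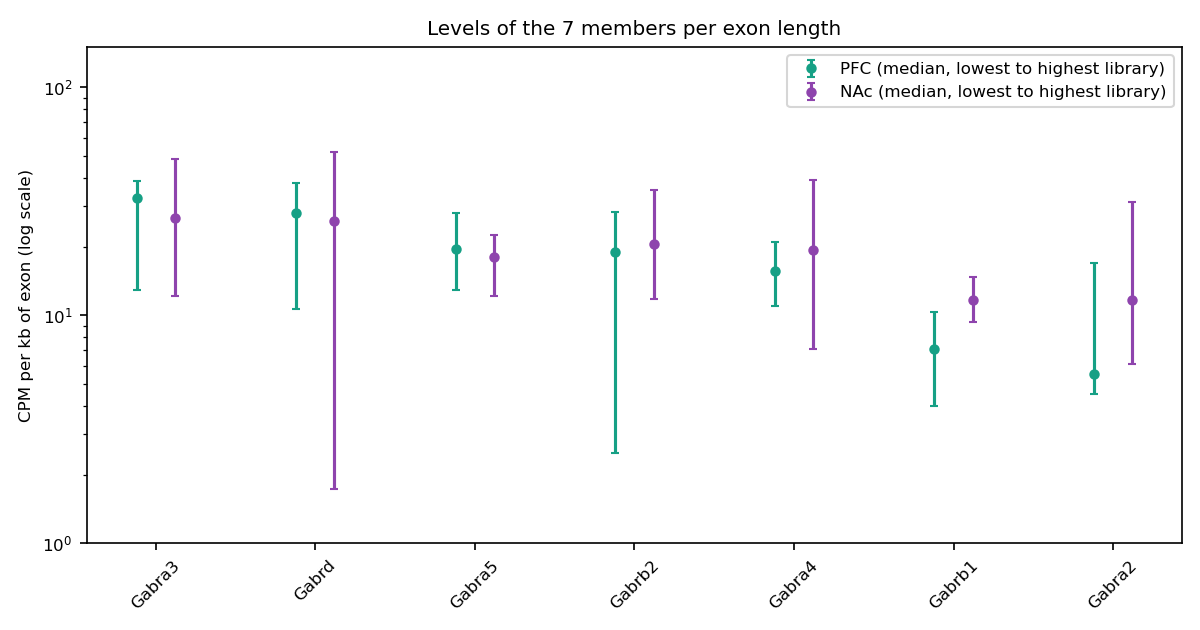
Counts per kilobase of exon, scaled to library size (log axis), of the 7 members; points are medians over 30 PFC or 32 NAc libraries and bars run from the lowest to the highest library. Gabra3 had the highest median in both regions, and Gabrd had the longest NAc bar, from 1.73 to 52.2.

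The comparison of the regions asked which members were higher in the accumbens than in the cortex, averaged over treatments and sexes. Gabra2, Gabra4 and Gabrb1 were higher in NAc and Gabra3 and Gabra5 were lower, while Gabrb2 and Gabrd did not pass the test. These 5 of 7 members called at a Benjamini-Hochberg adjusted p under 0.05 (edgeR) stand against 66.2% of all 19266 genes tested, so the share itself is close to the background. The median log2 difference was 0.26 over the 7 members and 0.07 over all genes. With the saline libraries alone, Gabrb1 was the 1 member called, against 35.9% of all genes.

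Gabrb1, a beta subunit with low etomidate sensitivity, showed the clearest regional difference. Its log2 CPM ran from 5.79 to 7.16 (median 6.62) in PFC and from 7.01 to 7.66 (median 7.34) in NAc. The ranges overlapped only between 7.01 and 7.16. The log2 difference was 0.77 ± 0.06 (SE, edgeR adjusted p = 1.38e-15), and 0.81 ± 0.14 in saline libraries alone (adjusted p = 3.56e-06).

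Gabra2, an alpha subunit of forebrain synapses known for its link to anxiety and alcohol use, ran from 5.10 to 7.01 log2 CPM (median 5.39) in PFC and from 5.54 to 7.90 (median 6.48) in NAc. Its ranges overlapped widely, and the log2 difference was 0.80 ± 0.13 (SE, edgeR adjusted p = 3.02e-07). In each pair of same-numbered libraries the NAc value of Gabra2 was the higher. Gabra4, which pairs with delta outside synapses, had medians of 6.57 in PFC and 6.88 in NAc and a log2 difference of 0.40 ± 0.11 (adjusted p = 0.00209). In saline libraries alone the difference was 0.11 ± 0.24 for Gabra4 and 0.62 ± 0.28 for Gabra2, and neither was called (adjusted p = 0.761 and 0.0717).

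Gabra3 ran from 5.67 to 7.25 log2 CPM in PFC and from 5.57 to 7.57 (median 6.72) in NAc, with a log2 difference of -0.26 ± 0.10 (SE, edgeR adjusted p = 0.0214). Gabra5, an alpha subunit that forms receptors outside synapses and is best known from the hippocampus, had medians of 5.87 and 5.74 and a difference of -0.19 ± 0.07 (adjusted p = 0.0106). Both genes' ranges overlapped between the regions, and neither was called in saline libraries alone. Gabrb2, the beta subunit of the most common receptor, differed by 0.26 ± 0.13 (adjusted p = 0.076), and Gabrd by -0.12 ± 0.19 (adjusted p = 0.583). DESeq2 called Gabrb2 as well, with a difference of 0.29 (adjusted p = 0.0377). Without the 6 libraries named above, the same 5 members were called, Gabra3 differed by -0.46 ± 0.08, Gabra4 by 0.55 ± 0.09 and Gabrb2 by 0.13 ± 0.09, and Gabrd changed sign to 0.13 ± 0.12 (adjusted p = 0.35).

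Within NAc, the levels of Gabrd, Gabra4 and Gabra3 moved with the striatal score from library to library. Gabrd ran from 2.31 log2 CPM (chronic morphine library 25) to 7.23 in NAc, against 4.93 to 6.77 in PFC. The 4 NAc libraries with the lowest striatal scores also had the lowest Gabrd, at 2.31, 3.18, 4.11 and 4.16. After the mean of each treatment and sex was subtracted, Gabrd correlated with the score at r = 0.99, Gabra4 at 0.95 and Gabra3 at -0.87 over the 32 NAc libraries. Gabra5 followed at 0.51, and Gabrb1, Gabrb2 and Gabra2 at -0.35, -0.28 and -0.14. Gabra4 and Gabrd, whose subunits assemble together in forebrain neurons, correlated at 0.96 with each other, and Gabra3 and Gabra4 at -0.91. These correlations are descriptions, since the genes share libraries, depth and tissue makeup.

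**Figure D2:**
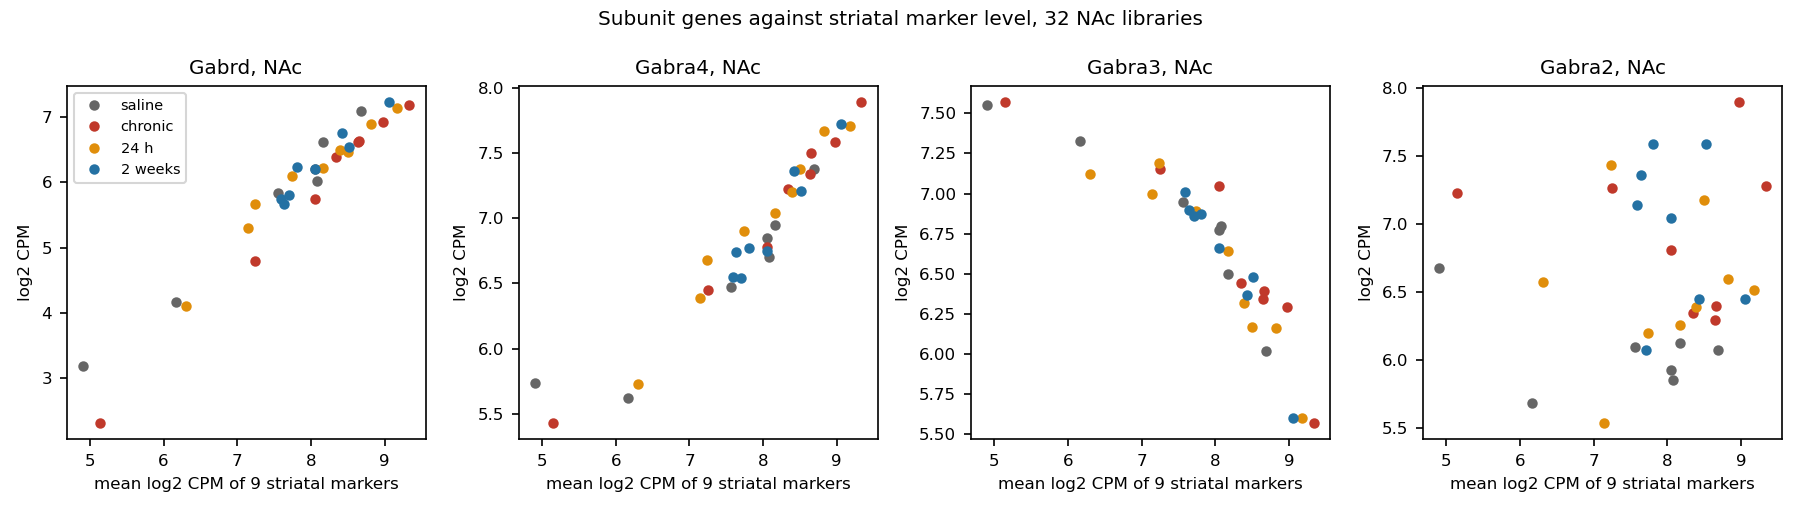
Log2 CPM of 4 subunit genes against the mean log2 CPM of 9 striatal markers, each point 1 of 32 NAc libraries, coloured by treatment. Gabrd and Gabra4 went up along the axis (r = 0.99 and 0.95), Gabra3 went down (r = -0.87), and Gabra2 showed little relation (r = -0.14), each r taken after the treatment and sex means were subtracted.

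The treatment comparisons asked which members differed from saline during chronic morphine and at 24 h or 2 weeks after it. Gabra2 in NAc under chronic morphine was the 1 member called. In NAc, chronic morphine gave 1 call among 7 members, against 1.69% of 18382 genes tested. At 24 h edgeR called 0 members (background 0.163%) and DESeq2 0. At 2 weeks edgeR called 0 (background 0.00544%) and DESeq2 1, against 30 of 18374 genes by DESeq2. At an unadjusted p under 0.05 in edgeR there was 1 member at 24 h and 1 at 2 weeks. Over all genes there were 2218 and 1182 of 18382. In PFC, edgeR called 0 members under chronic morphine (background 0.417% of 17966 genes; 1 unadjusted, 0 by DESeq2), 0 at 24 h (0.0779%; 0 and 0) and 0 at 2 weeks (0.00557%; 1 and 0). In PFC, 1422, 541 and 904 of 17966 genes had an unadjusted p under 0.05 in these comparisons, in the same order. All 3 comparisons in a region share the saline libraries. The median log2 difference of the members from saline ran from -0.07 to 0.06 in PFC and from 0.18 to 0.24 in NAc, against -0.045 to 0.013 and -0.009 to 0.001 over all genes.

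**Figure D3:**
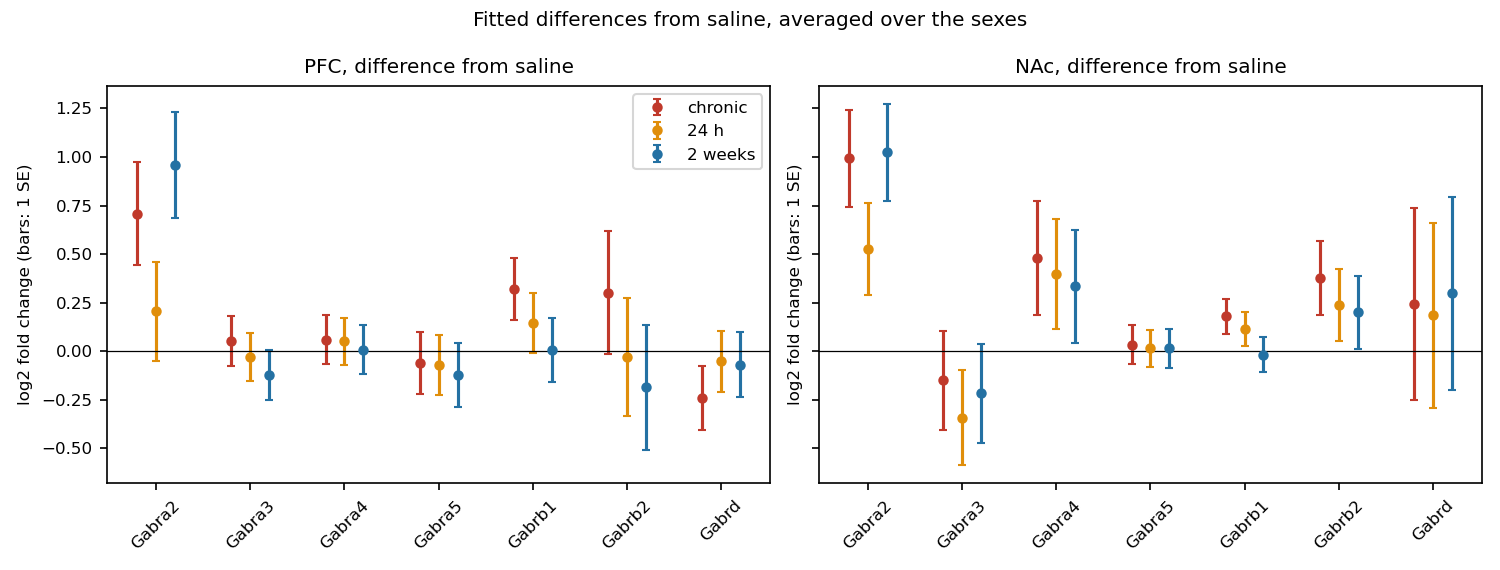
Fitted log2 difference from saline of each member in PFC and NAc, averaged over the sexes, with bars of 1 SE; the 3 morphine groups of a region share its saline libraries. Gabra2 had the highest point in each panel, up to 0.96 in PFC and 1.02 in NAc, while the other members' points lay between -0.34 and 0.48.

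In NAc saline libraries, Gabra2 ran from 5.69 to 6.68 log2 CPM with a median of 6.08. Under chronic morphine it ran from 6.30 to 7.90 with a median of 7.02, and 5 of 8 libraries lay above every saline library. The log2 difference was 0.99 ± 0.25 (SE, edgeR adjusted p = 0.035). At 24 h the values ran from 5.54 to 7.44 (median 6.52), and the difference of 0.53 ± 0.24 did not pass (adjusted p = 0.377). At 2 weeks they ran from 6.08 to 7.59 (median 7.10), again with 5 of 8 libraries above every saline library. That difference was 1.02 ± 0.25, as large as under chronic morphine, and was not called by edgeR (adjusted p = 0.21) but was by DESeq2 (adjusted p = 0.0217).

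The chronic call in NAc was close to the threshold. Without saline library 1, 2, 3, 4, 5 or 7, or without chronic library 27, 28 or 29, the adjusted p was 0.0566 to 0.164 (edgeR), and the difference ran from 0.78 to 1.16 over all libraries left out in turn. Without the 4 NAc libraries of low striatal score it was 1.06 ± 0.30 (adjusted p = 0.101).

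In PFC saline libraries, Gabra2 ran from 5.10 to 6.32 log2 CPM with a median of 5.20. Under chronic morphine it ran from 5.21 to 6.81 (median 6.30), and the log2 difference of 0.71 ± 0.27 (SE) was not called by edgeR (adjusted p = 0.457). At 24 h the range was 5.10 to 6.31 (median 5.38) with a difference of 0.21 ± 0.26. At 2 weeks it was 5.26 to 7.01 (median 6.32) with a difference of 0.96 ± 0.27 (adjusted p = 0.779). Without PFC libraries 10 and 20 that difference was 0.95 ± 0.28. In each PFC group the libraries overlapped with saline. A direct test for unequal treatment effects in the 2 regions called 0 of 7 members (background 0.0363%; 0 unadjusted, 0 by DESeq2; adjusted p for Gabra2 = 0.988).

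**Figure D4:**
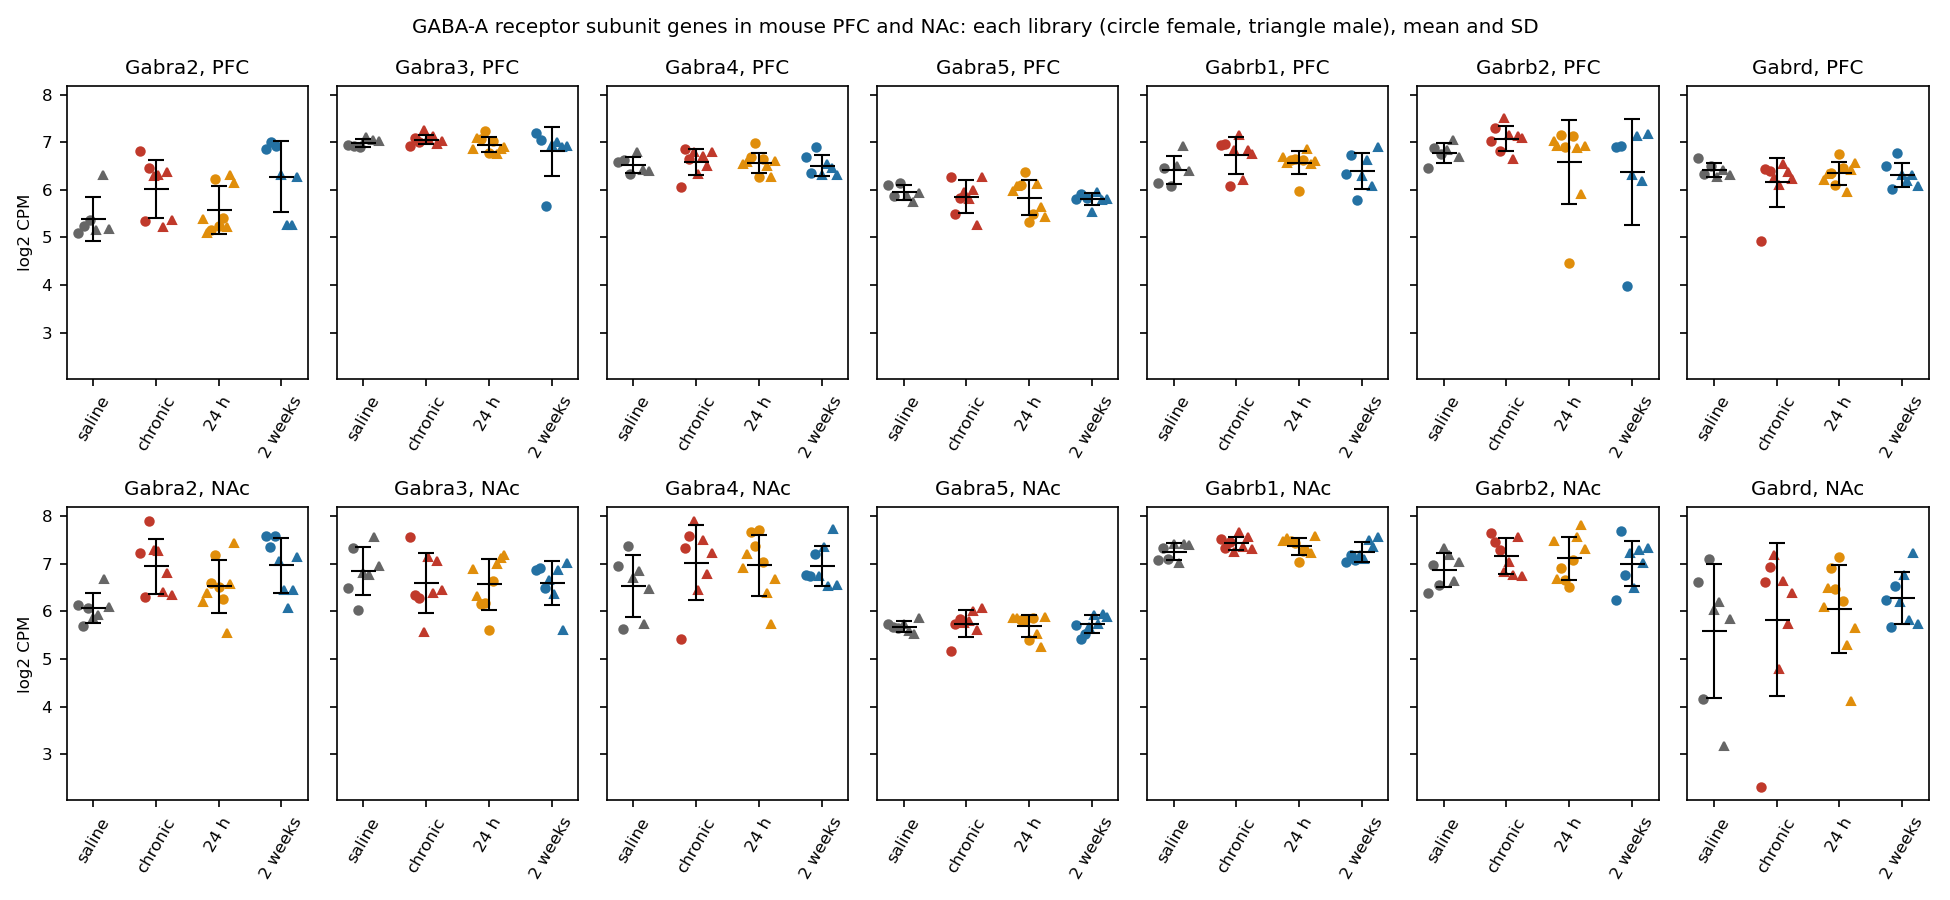
Log2 CPM of each member in every library by treatment, PFC above and NAc below; circles are female and triangles male libraries, and the black marks give the mean and SD. Gabra2 in PFC has a gap between 5.40 and 6.15, Gabrb2 in PFC has single low libraries at 3.99 and 4.46, and Gabrd in NAc spreads from 2.31 to 7.23.

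The PFC values of Gabra2, put in order, were cut at the widest and second-widest gaps into 3 levels. Such a cut gives 3 levels for any gene. A low level at 5.10 to 5.40 log2 CPM held 16 libraries, a middle level at 6.15 to 6.46 held 10, and a high level at 6.81 to 7.01 held 4. The gap between the low and middle levels was 0.75, and that between the middle and high levels was 0.35. The second-widest gap in PFC was 0.47 for Gabrb2 and 0.08 to 0.18 for the other members. For the other members in PFC, the widest gap set apart at most 3 libraries, as for Gabra3 (1.08), Gabrb2 (1.46) and Gabrd (1.01), where it set apart 1, 2 and 1. In NAc the widest gap of Gabra2 was 0.31 and set apart only its highest library, so the values there ran without a step.

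These levels ran across the treatments. Of the 6 saline libraries, 5 were low and 1 (library 6) was middle. Under chronic morphine 3 were low, 4 middle and 1 high, at 24 h 6 were low and 3 middle, and at 2 weeks 2 were low, 2 middle and 3 high. The 3 high libraries at 2 weeks were the 3 females of that group, at 6.86, 6.91 and 7.01, while its males lay at 5.26, 5.27, 6.26 and 6.32. The value of 6.91 was that of library 10, which had the fewest counts. The test of treatment effects between the sexes called 0 members in PFC by edgeR (background 0.0% of genes) and 0 by DESeq2. In edgeR 1 member, Gabra2, had an unadjusted p under 0.05 (p = 0.0426), against 846 of 17966 genes.

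In NAc, libraries with the low numbers lay mostly below the rest, but those with the high numbers fell within the range of the middle numbers. The numbers with a low PFC value had NAc values of 5.54 to 6.60, those with a middle PFC value 6.58 to 7.90, and those with a high PFC value 7.23 to 7.59. Library 6, the middle saline library of PFC, was also the highest of the NAc saline libraries at 6.68. No test was run on the levels, which were read from the values themselves.

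**Figure D5:**
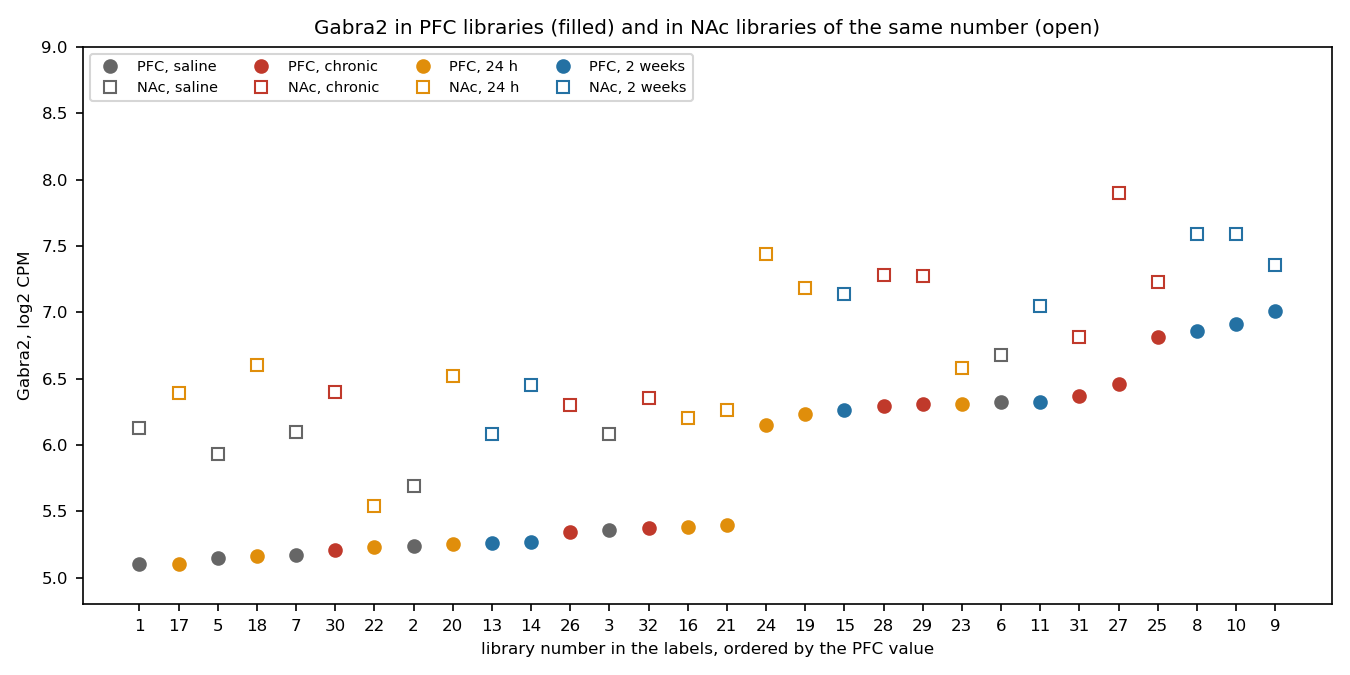
Gabra2 log2 CPM in the 30 PFC libraries, ordered by their PFC value (filled circles), with the NAc library of the same number (open squares), coloured by treatment. Cut at their widest gaps, the PFC points lie at 5.10 to 5.40, 6.15 to 6.46 and 6.81 to 7.01. The NAc squares of the low numbers end at 6.60, where those of the middle numbers begin at 6.58. Those of the high numbers lie within the range of the middle numbers.

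The gene whose values were most like those of Gabra2, by the correlation of deviations from the treatment and sex means among 13013 genes, was Gm42732, a gene model annotated as TEC on the same chromosome (73311364 to 73312560), with r = 0.84 over 62 libraries, 0.90 in PFC and 0.77 in NAc. In PFC it lay at 3.63 to 4.12 log2 CPM in the 16 libraries with low Gabra2 and at 4.51 to 5.17 in the others. The second gene, Cyb5b, reached 0.54. In NAc alone the most alike gene was Cox18, also on chromosome 5, with r = 0.85, and 4 of the 10 most alike genes there lay on chromosome 5, against 2 of 10 in PFC and 1 of 10 over all 62 libraries. Chromosome 5 holds 6.50% of the genes compared. The neighbours of Gabra2 in its own cluster were less alike, with r over 62 libraries of -0.05 for Gabrg1, -0.12 for Gabra4 and 0.26 for Gabrb1.

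Gabra2 is known to be expressed at a lower level in C57BL/6J mice than in other C57BL/6 substrains. Of 8 other genes known to differ between these substrains, Nnt ran from 3.78 to 4.73 log2 CPM in PFC without a wide gap (0.14). Wdfy1 ran from 3.04 to 5.89 with a gap of 0.79 that left 13 of 30 PFC libraries below it, and it was the 1 gene of that list called under chronic morphine, with log2 differences of 1.64 ± 0.30 in PFC (edgeR adjusted p = 0.00446) and 1.66 ± 0.27 in NAc (adjusted p = 0.00151). Wdfy1 was lower at 2 weeks than under chronic morphine in both regions. Its log2 differences were -1.39 ± 0.29 in PFC (edgeR adjusted p = 0.0106) and -2.02 ± 0.26 in NAc (adjusted p = 2.6e-05). Gabra2 was not called in that comparison, at 0.25 ± 0.25 in PFC and 0.03 ± 0.24 in NAc. With Nnt as a covariate, the Gabra2 difference in NAc under chronic morphine was 0.94 ± 0.26 (adjusted p = 0.0575). The part of genetic background in the Gabra2 levels was not tested.

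The other alpha members were not called against saline in either region. Gabra3 in PFC ran from 6.89 to 7.10 log2 CPM in saline libraries (median 6.99) and from 6.92 to 7.25 under chronic morphine (median 7.05). Its log2 differences from saline in PFC were 0.05 ± 0.13, -0.03 ± 0.12 and -0.12 ± 0.13 (SE, chronic, 24 h, 2 weeks), and the last was 0.03 ± 0.07 without PFC libraries 10 and 20. In NAc, saline libraries ran from 6.02 to 7.55 (median 6.80) and chronic libraries from 5.57 to 7.57 (median 6.42), with a difference of -0.15 ± 0.25 (edgeR adjusted p = 0.834).

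Gabra4 in PFC ran from 6.33 to 6.79 log2 CPM in saline and from 6.07 to 6.85 under chronic morphine, a log2 difference of 0.06 ± 0.12 (SE). In NAc it ran from 5.62 to 7.38 in saline (median 6.70), 5.43 to 7.89 under chronic morphine (median 7.28), 5.73 to 7.71 at 24 h (median 7.04) and 6.54 to 7.72 at 2 weeks (median 6.76). The NAc differences of 0.48 ± 0.29, 0.40 ± 0.28 and 0.33 ± 0.29 were not called (edgeR adjusted p = 0.465, 0.572 and 0.905), and without the 4 libraries of low striatal score they were 0.43, 0.21 and 0.07. The striatal score itself had medians of 8.05, 8.49, 8.17 and 7.93 in these 4 groups.

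Gabra5 was the steadiest member in NAc apart from Gabrb1, at 5.16 to 6.07 log2 CPM over all libraries. Its NAc medians were 5.67 in saline, 5.78 under chronic morphine, 5.81 at 24 h and 5.73 at 2 weeks, with log2 differences of 0.03, 0.01 and 0.01, each ± 0.10 (SE). In PFC the differences were -0.06 ± 0.16, -0.07 ± 0.15 and -0.12 ± 0.16, with medians of 5.90, 5.88, 5.97 and 5.81. All groups overlapped.

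Of the beta members, Gabrb1 had NAc medians of 7.33 log2 CPM in saline, 7.40 under chronic morphine, 7.43 at 24 h and 7.18 at 2 weeks. Its log2 differences from saline were 0.18 ± 0.09, 0.11 ± 0.09 and -0.02 ± 0.09 (SE, edgeR adjusted p = 0.348, 0.606 and 0.982). In PFC the medians were 6.43, 6.84, 6.63 and 6.33, and chronic morphine differed by 0.32 ± 0.16 (adjusted p = 0.655). Gabrb1, whose exons span 13838 bases, followed the balance of long over short transcripts in a library (the mean log2 CPM of genes with the longest transcripts minus that of genes with the shortest), with r = 0.87 over 30 PFC and 0.63 over 32 NAc libraries. The median balance was 1.03 in PFC saline and 1.55 under chronic morphine. With the balance as a covariate, the chronic difference of Gabrb1 in PFC was 0.04 ± 0.10. That of Gabra2 in NAc was 1.02 ± 0.27 and no longer called (edgeR adjusted p = 0.0537). The part of the balance in these differences was not tested.

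Gabrb2 in PFC ran from 6.45 to 7.05 log2 CPM in saline (median 6.79), 6.64 to 7.50 under chronic morphine (median 7.10), 4.46 to 7.16 at 24 h (median 6.92) and 3.99 to 7.17 at 2 weeks (median 6.89). The lowest values were those of library 20 and library 10 (86 counts). The log2 differences of 0.30 ± 0.32, -0.03 ± 0.30 and -0.19 ± 0.32 (SE) became 0.29 ± 0.16, 0.13 ± 0.16 and 0.04 ± 0.17 without these libraries. In neither case was a member called in PFC. The smaller SEs follow in part from leaving out the lowest Gabrb2 values. Library 20 also had the lowest long-transcript balance in PFC, 0.31. In NAc the medians were 6.97, 7.16, 7.08 and 7.12, and the chronic difference was 0.38 ± 0.19 (edgeR adjusted p = 0.349). Gabrb2 also followed the long-transcript balance in PFC, with r = 0.69 over 30 libraries.

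Gabrd, the delta subunit, had PFC medians of 6.38 log2 CPM in saline, 6.30 under chronic morphine, 6.35 at 24 h and 6.31 at 2 weeks. Chronic library 25 was lowest at 4.93, and the log2 difference under chronic morphine was -0.24 ± 0.16 (SE, edgeR adjusted p = 0.788). In NAc it ran from 3.18 to 7.09 in saline (median 6.02) and from 2.31 to 7.19 under chronic morphine (median 6.50), with a difference of 0.24 ± 0.50 (adjusted p = 0.864). With the striatal score as a covariate, this became -0.50 ± 0.10 (adjusted p = 0.00353). Between chronic morphine and 2 weeks, the same covariate gave 0.40 ± 0.09 (adjusted p = 0.00944). The part of tissue makeup in these values was not tested. Without the 4 libraries of low striatal score the difference was 0.12 ± 0.32 (adjusted p = 0.916).

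Over the whole course, the test of any difference among the 4 treatments called 0 members in PFC (background 0.707%; 1 unadjusted, 1 by DESeq2) and 0 in NAc (background 1.84%; 1 unadjusted, 1 by DESeq2). Over all genes, 1568 of 17966 in PFC and 2744 of 18382 in NAc had an unadjusted p under 0.05. DESeq2 called 358 of 17936 and 872 of 17662 genes. The lowest edgeR adjusted p of a member was that of Gabra2 in both regions, at 0.202 and 0.0521. Between chronic morphine and 2 weeks, a comparison without saline libraries, 0 members were called in PFC (background 0.824%; 0 unadjusted, 0 by DESeq2) and 0 in NAc (background 1.88%; 1 unadjusted, 0 by DESeq2). The member at an unadjusted p under 0.05 in NAc was Gabrb1, against 2358 of 18382 genes. Its log2 difference was -0.20 ± 0.09 (SE, edgeR adjusted p = 0.321), while Gabra2 differed by 0.03 ± 0.24. The test of treatment by sex in NAc called 0 members (background 0.0544%; 1 unadjusted, 0 by DESeq2). The member at an unadjusted p under 0.05 was Gabrb2 (edgeR adjusted p = 0.514), against 1757 of 18382 genes. Its female medians were 6.56 log2 CPM in saline and 7.45 under chronic morphine, against male medians of 7.10 and 6.82.

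The genes most like the other members over 62 libraries, by the same measure, included Ngef for Gabrd (r = 0.97). For Gabra4 they were Chn1 (0.95) and Fbxl16 (0.94), and for Gabra3 Camk2g and Slitrk1 (0.91 for both). Gabrb1 was closest to Wdfy3 (0.88) and Vps13d (0.87), Gabrb2 to Samd5 (0.92), and Gabra5 to Tial1 (0.74) and Txlng (0.71). These values share libraries, depth and tissue makeup and carry no test.

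Among 12 other GABA-A subunit genes, 9 were tested in PFC and 10 in NAc, and edgeR and DESeq2 called 0 in every treatment comparison. Against saline, among the 4 treatments or between chronic morphine and 2 weeks, 0 or 1 had an unadjusted p under 0.05. Over all genes this ran from 541 of 17966 (PFC, 24 h) to 2785 of 18382 (NAc, chronic morphine). In the test of treatment by sex, 2 of 9 in PFC and 5 of 10 in NAc had an unadjusted p under 0.05, against 846 of 17966 and 1757 of 18382 genes, and in that of treatment by region 2 of 10, against 921 of 19266. Gabra6, Gabrp and Gabrr3 had at most 28, 1 and 5 counts in any library. Between the regions 8 of 10 were called, 5 higher and 3 lower in NAc, against 66.2% of all genes. With saline libraries alone 5 of 10 were called, 4 higher and 1 lower, against 35.9%. The largest were Gabre and Gabrq, which often occur together in receptors of the basal forebrain and brainstem, with log2 differences of 7.18 ± 0.43 and 6.44 ± 0.41 (SE, edgeR adjusted p = 1.28e-20 and 6.66e-20), and Gabrg1, beside Gabra2 on chromosome 5, with 2.10 ± 0.10 (adjusted p = 5.25e-25). The PFC counts behind the first pair were low, at 0 to 32 for Gabre and 0 to 110 for Gabrq, against 39 to 1183 and 70 to 2443 in NAc.

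Of 5 further lists, edgeR called 0 genes in every treatment comparison in either region (0 to 3 of a list at an unadjusted p under 0.05), and DESeq2 called 1 anchoring gene between chronic morphine and 2 weeks in NAc. Over all genes, 541 of 17966 (PFC, 24 h) to 2785 of 18382 (NAc, chronic morphine) had an unadjusted p under 0.05. The lists held genes of GABA synthesis, transport and breakdown (8) and of receptor anchoring and assembly (14). The others were of GABA-B receptors (6), the chloride gradient (7) and neurosteroid synthesis (5). Between the regions, 7 of 8 genes of GABA handling were called, 6 of them higher in NAc, led by Gad2, a GABA-synthesising enzyme (2.46 ± 0.09, SE), and Slc32a1, which loads GABA into vesicles (1.68 ± 0.05). All 14 anchoring genes were called, 7 in each direction, as were 4 of 6 GABA-B genes (3 higher), 6 of 7 chloride genes (4 higher) and 4 of 5 neurosteroid genes (1 higher, 3 lower), against the background of 66.2% of all genes. With saline libraries alone, against 35.9% of all genes, the calls were 7 of 8 for GABA handling (6 higher), 8 of 14 for anchoring (3 higher, 5 lower), 3 of 6 for GABA-B (2 higher), 5 of 7 for chloride (3 higher) and 1 of 5 for neurosteroids (1 higher).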

How the data were processed

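The members and gene lists were chosen with earlier results of these data known. The authors deposited 1 table of raw mouse read counts per gene, with whole numbers and 1 column per library. Per the submitters' processing notes, the build was GRCm38, and FastQC, cutadapt, Trimmomatic, STAR, HISAT2 and RSEM are named without versions or roles. The counting program and its strand setting are not given in the sources used here. Rows for unassigned reads stayed out of library sizes; relative to counted plus unassigned reads, their median shares were 5.43% outside genes, 0.832% ambiguous, 0.334% of low quality, 0.566% unaligned and 14.7% aligned to several places. Symbols matched 45143 of 46078 identifiers, and unmatched identifiers held 0.064% of counts. Positions, lengths and transcripts are those of GENCODE M21 (GRCm38). The mouse promoter and protein sequences were not used here.

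Each region was fitted with edgeR 4.0.16 (R 4.3.3), quasi-likelihood with TMM scaling and filterByExpr, on treatment-by-sex means, and contrasts were averaged over the sexes. A fit of all 62 libraries compared the regions. P-values were adjusted by Benjamini-Hochberg over all genes tested, with calls at 0.05. Log2 CPM is on the TMM-scaled library size, with a prior count of 2. The fits were tested on simulated data. All 7 members are named, other genes if called (at most 3 of a list), and the 2 most alike genes of each member with a mean log2 CPM of at least 1; some genes these rules name are not reported here. The alternatives tried were DESeq2 1.42.0, its size factors in edgeR, all detected genes kept, covariates (striatal score, Nnt), 2 surrogate variables (sva 3.50.0), a replicate block, and each library left out. Added after seeing the data were the long-transcript covariate and fits without PFC libraries 10 and 20 or NAc libraries 2, 6, 23 and 25, or all 6.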

Additional observations from a re-analysis of the deposited data

Results flagged for a closer look

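Of 56 member, region and treatment groups, 8 held a library whose distance from its nearest neighbour was a large part of the group's range (Dixon's 95% critical value), where chance gives about 1 in 20. All values are log2 CPM. PFC library 10 (2 weeks) was lowest for Gabra3 at 5.67, with the next at 6.89, and for Gabrb2 at 3.99, with the next at 6.18. PFC library 20 (24 h) was lowest for Gabrb1 at 5.97, with the next at 6.54, and for Gabrb2 at 4.46, with the next at 5.92. PFC library 25 (chronic morphine) was lowest for Gabrd at 4.93, and NAc library 25 was also the lowest of all for Gabrd, at 2.31. PFC library 11 (2 weeks) was lowest for Gabra5 at 5.54. NAc library 14 (2 weeks) was lowest for Gabra3 at 5.60 and had the highest striatal score of its group, 9.06. PFC saline library 6 was highest for Gabra2 at 6.32, with the next at 5.36, and is the middle-level saline library described above.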

How the results depend on the processing

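The count of members called under chronic morphine in NAc, 1, became 2 with the striatal score as a covariate and 0 with Nnt, with the long-transcript balance or without NAc libraries 2, 6, 23 and 25. Any difference among the 4 treatments gave 1 member with DESeq2 in PFC (358 of 17936 genes). In NAc it gave 1 with DESeq2, 1 with 2 surrogate variables and 2 with the striatal score. Over all genes, those NAc fits called 872 of 17662, 1168 of 18382 and 850 of 18382. In NAc at 2 weeks DESeq2 called 1 (30 of 18374 genes). Between chronic morphine and 2 weeks in NAc, the striatal score gave 1 (804 of 18382 genes). The region difference gave 2 members with Nnt and 1 with saline libraries only (35.9% of all genes). Gabrd in NAc under chronic morphine reversed to -0.50 with the striatal score. Leaving out each library in turn gave 0 to 1 members for chronic morphine in NAc (for Gabra2 a log2 difference of 0.78 to 1.16, adjusted p = 0.0136 to 0.164 in edgeR), 0 to 1 for any difference in NAc and 0 to 0 in every other treatment comparison of either region. The cause of these changes was not tested.

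The main fit treated same-numbered libraries of PFC and NAc as separate. Their deviations correlated at 0.01 to 0.22 (median 0.07), and 5 of 30 pairs exceeded 0.1. These values cannot show whether a number marks the same animal. Each shared number had the same treatment and sex in both regions, and numbers with low Gabra2 in PFC were mostly low in NAc. With the replicate block, 6 members differed between regions (Gabrb2 was added, 0.33 ± 0.13, edgeR adjusted p = 0.0305, and Gabrd was at -0.39 ± 0.18, adjusted p = 0.057, against -0.12 without the block) and 0 in the test of treatment effects between regions. The planned exact test of a single value was not run, because no such value is reported. The lowest count of a member in any library was 86, for Gabrb2.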
